A study of Mus musculus with 6 samples.

Results

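The complement genes *C1qa*, *C1qb*, *C1qc*, *C1ra*, *C4b*, *C3*, *Serping1*, *C3ar1* and *C5ar1* were examined in mouse embryonic fibroblasts (MEFs) with and without *Aff3ir-ORF2*. They were found by symbol in a table of estimated counts, and all 9 were present among its 17092 genes. They were chosen by their measured counts in the *Aff3ir-ORF2*-/- and WT libraries together with their known function, so their differences are given as values without a test. RNA-seq covered 3 libraries of WT MEFs and 3 libraries of *Aff3ir-ORF2*-/- MEFs, with no treatment or flow named for either. The knockout is a global deletion made with Cas9 and guide RNAs in fertilized eggs and bred from heterozygotes, and *Aff3ir-ORF2* is a transcript nested in *Aff3*. The age of the embryos is not given in the sources used here. Nothing states whether the libraries of a genotype came from separate embryos or cultures, so the errors and p-values below measure the spread between these libraries, which may be technical. The knocked-out transcript was not analysed here, and the genotypes therefore rest on the labels.

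Complement is a cascade of plasma proteins that tags microbes, immune complexes and dying cells. In the classical pathway C1q, built from A, B and C chains, binds the target, and its attached proteases C1r and C1s then cleave C4 and C2, which leads to cleavage of C3. The released fragments C3a and C5a call in leukocytes through the receptors encoded by *C3ar1* and *C5ar1*, and C1 inhibitor, the product of *Serping1*, inactivates C1r and C1s. The liver makes most complement proteins, fibroblasts make C1r, C1s, C3 and C1 inhibitor among others, whereas C1q comes mainly from macrophages and dendritic cells, and myeloid cells carry the anaphylatoxin receptors.

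Libraries held 17435133 to 17726034 counts in WT and 18209421 to 18252330 in *Aff3ir-ORF2*-/- cells. Levels are given as CPM, counts scaled to a common library size after normalization for library composition, and 3 counts in a library, 0.174 CPM in the shallowest, were taken as the detection floor. The fibroblast label was checked against 12 marker genes, all detected, whose summed level was 30154 to 30226 CPM in WT and 25709 to 32524 CPM in *Aff3ir-ORF2*-/- libraries. A list of 20 macrophage marker genes, of which 19 were in the table, summed to 21.8 to 25.1 CPM in WT and to 1379, 1882 and 2333 CPM in *Aff3ir-ORF2*-/- replicates 1, 2 and 3. These sums are given here because the complement genes were measured in the same libraries, and their part in the results was not tested. In bulk RNA, a changed number of cells of a type and a changed amount of RNA per cell cannot be told apart.

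The 5 genes for C1q and the anaphylatoxin receptors were near or under the floor in WT, apart from *C3ar1*, and had 195 to 776 counts in every *Aff3ir-ORF2*-/- library. The other 4 genes, *C1ra*, *C3*, *C4b* and *Serping1*, differed less, from 1.31-fold for *C1ra* to 11.0-fold for *C4b*. Of these, *C4b* was low in WT, with a mean of 0.479 CPM against 0.955 CPM for *C3ar1*. On the log2 scale, the fitted differences ran from 5.12 to 11.70 in the first set and from 0.39 to 3.44 in the second. All 9 genes passed the filter on low counts, *C1qa*, *C1qb*, *C1qc*, *C5ar1* and *C4b* solely through their *Aff3ir-ORF2*-/- libraries. A call needed a change of at least 1.5-fold and an adjusted p under 0.05 in edgeR's quasi-likelihood test (Benjamini-Hochberg), and 8 of the 9 were called higher and 0 lower in *Aff3ir-ORF2*-/- cells, against 14.3% and 7.32% of the 13075 genes tested. In 8 of the 9, every *Aff3ir-ORF2*-/- library lay above every WT library, as it did in 33.3% of the genes tested. The exception in both counts was *C1ra*. As this comparison chose the genes, nothing is read from these counts.

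**Figure D1:**
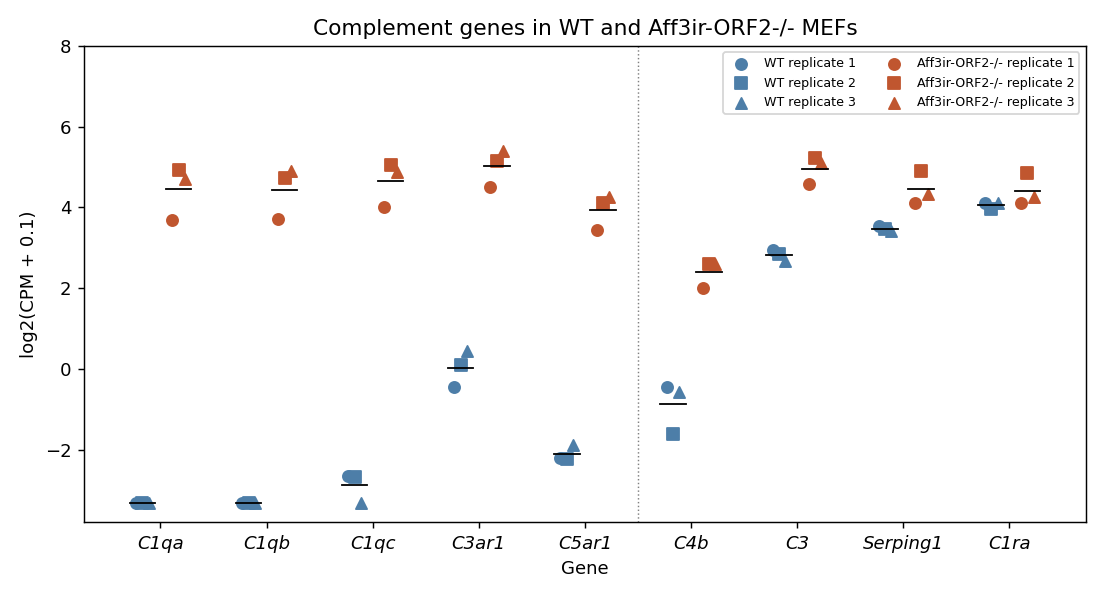
Level of the 9 complement genes in each library, as log2(CPM + 0.1), with a point per library, a shape per replicate number and a short line at the mean of the log values. Left of the dotted line, C1q chains and receptors are near the bottom of the axis in WT apart from *C3ar1*, and right of it WT points of *C3*, *Serping1* and *C1ra* lie closer to their *Aff3ir-ORF2*-/- points, overlapping for *C1ra* alone.

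The promoter sequences below are shown for the genes on both sides of this contrast in which a short factor motif was found. Of the 9 genes, 6 had an entry in the RefSeq promoter table of GRCm38.p6, and *C1qa*, *C4b* and *Serping1* had none. The 250 bases before each start were searched on both strands for GAGGAA (the core bound by the myeloid factor PU.1), TGANTCA (AP-1), TTNCGNAA (C/EBP) and the interferon-regulatory-factor element, none of which overlapped in these genes. Sequences are written 5′ to 3′ on the gene's strand and end at the base before the start, and capitals mark a match.
*C1qb*, chr4:136886201-136886450, minus strand: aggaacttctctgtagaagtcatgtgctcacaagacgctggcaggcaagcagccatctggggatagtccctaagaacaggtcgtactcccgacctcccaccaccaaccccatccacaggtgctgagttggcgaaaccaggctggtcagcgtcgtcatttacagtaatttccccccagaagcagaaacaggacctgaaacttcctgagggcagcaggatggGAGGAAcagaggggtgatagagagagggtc
*C1qc*, chr4:136892915-136893164, minus strand: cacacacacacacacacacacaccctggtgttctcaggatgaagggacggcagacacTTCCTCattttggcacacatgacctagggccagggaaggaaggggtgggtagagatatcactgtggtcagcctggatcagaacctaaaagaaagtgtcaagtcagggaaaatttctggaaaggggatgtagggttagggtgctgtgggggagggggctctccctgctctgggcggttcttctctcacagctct
*C3*, chr17:57228137-57228386, minus strand: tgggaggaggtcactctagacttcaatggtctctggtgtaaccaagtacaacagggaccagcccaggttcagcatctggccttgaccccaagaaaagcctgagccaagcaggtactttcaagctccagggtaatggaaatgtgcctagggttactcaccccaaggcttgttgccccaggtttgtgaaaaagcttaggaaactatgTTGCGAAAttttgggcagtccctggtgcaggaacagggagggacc
*C3ar1*, chr6:122856158-122856407, minus strand: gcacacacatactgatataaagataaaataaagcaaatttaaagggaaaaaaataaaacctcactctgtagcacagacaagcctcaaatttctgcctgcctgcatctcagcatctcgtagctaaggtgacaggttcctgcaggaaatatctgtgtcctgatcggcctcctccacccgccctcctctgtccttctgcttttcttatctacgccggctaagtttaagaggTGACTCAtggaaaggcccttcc
*C1qb*, which encodes the B chain, held the PU.1 core 30 to 25 bases before its start, and *C1qc*, which encodes the C chain, held it on the other strand, 193 to 188 bases before. That core was present in 23.1% of the 27025 mouse promoters of the same length. *C3* held the C/EBP motif 45 to 38 bases before its start, which 2.02% of promoters did, and *C3ar1* held the AP-1 motif 22 to 16 bases before, which 6.87% did. The windows of *C1ra* and *C5ar1* held no match, and the interferon-regulatory-factor element, present in 3.04% of promoters, was in 0 of the 6. A match is a run of letters and not a measured binding site.

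The C1q chains had almost no counts in WT MEFs. *C1qa*, the A chain, had 0 counts in each WT replicate and 234, 567 and 479 counts in *Aff3ir-ORF2*-/- replicates 1, 2 and 3, a mean of 23.1 ± 9.16 CPM (SD, n = 3). *C1qb* likewise had 0 counts in each WT replicate and 235, 488 and 550 counts in the *Aff3ir-ORF2*-/- replicates, a mean of 23.0 ± 8.96 CPM. Against the floor of 3 counts per library, *C1qa* was at least 133-fold higher and *C1qb* at least 132-fold higher in *Aff3ir-ORF2*-/- cells. *C1qc* had 1, 1 and 0 counts in WT and 290, 617 and 540 counts in *Aff3ir-ORF2*-/- replicates, 0.0383 ± 0.0332 against 26.2 ± 9.05 CPM. Its ratio of summed counts per depth was 685, with a 95% interval of 189 to 5665 that covers counting error only. For each chain *Aff3ir-ORF2*-/- replicate 1 was the lowest library, and the highest library exceeded it 2.37-fold for *C1qa*, 2.32-fold for *C1qb* and 2.08-fold for *C1qc*.

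The C1q protein takes equal numbers of its chains, so their transcripts were also compared with each other, per length. Divided by the length of the longest transcript in GENCODE M21, the A, B and C chains made up 33.9% ± 1.99, 32.4% ± 3.04 and 33.7% ± 1.83 (SD, n = 3) of the C1q transcripts in *Aff3ir-ORF2*-/- libraries. These shares overlapped across the replicates. *C1qa* took 33.0%, 36.2% and 32.5% in replicates 1, 2 and 3, while *C1qb* took 31.7%, 29.8% and 35.7%. Without the correction for length, *C1qc* took 36.5% ± 1.93. WT libraries held too few counts for such shares.

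The 2 anaphylatoxin receptors differed in their WT level. *C3ar1*, the C3a receptor, had 11, 17 and 22 counts in WT and 415, 661 and 776 counts in *Aff3ir-ORF2*-/- replicates, so that it was above the floor in every library. Its mean was 0.955 ± 0.311 CPM in WT and 33.5 ± 9.90 CPM in *Aff3ir-ORF2*-/- cells, a 35.1-fold difference of means and a fitted log2 difference of 5.12 (SE 0.32). The groups were far apart, and the lowest *Aff3ir-ORF2*-/- library held more counts than all WT libraries together. *C5ar1*, the C5a receptor, had 2, 2 and 3 counts in WT and 195, 322 and 352 counts in *Aff3ir-ORF2*-/- replicates, 0.134 ± 0.0328 against 15.7 ± 4.45 CPM. Its ratio of summed counts per depth was 118, with a 95% counting interval of 56.8 to 293. Both receptors were highest in *Aff3ir-ORF2*-/- replicate 3 and lowest in replicate 1.

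*C3* and *C4b*, the components cleaved to deposit complement on a surface, lay between these genes and the C1 proteases in size of difference. *C3* had 130, 124 and 109 counts in WT and 435, 689 and 623 counts in *Aff3ir-ORF2*-/- replicates. That was 6.94 ± 0.657 against 31.6 ± 6.85 CPM, a 4.55-fold difference of means and a fitted log2 difference of 2.19 (SE 0.17). *C3* was thus well detected in WT MEFs, and its groups did not overlap. *C4b* had 11, 4 and 10 counts in WT and 71, 111 and 109 counts in *Aff3ir-ORF2*-/- replicates, 0.479 ± 0.220 against 5.27 ± 1.18 CPM. The ratio of its means was 11.0 and its fitted log2 difference 3.44 (SE 0.32), from low WT counts. *C4b* shares most of its sequence with *C4a*, and both had deposited values that are not whole, such as 9.5 each in WT replicate 3, so the split of reads between them is uncertain. *C4a* was too low to be tested, with 6, 6 and 10 counts in WT and 8, 9 and 10 counts in *Aff3ir-ORF2*-/- replicates.

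The C1 inhibitor gene and the C1r gene differed least. *Serping1* had 199, 191 and 186 counts in WT and 315, 555 and 366 counts in *Aff3ir-ORF2*-/- replicates, 11.0 ± 0.467 against 22.3 ± 6.58 CPM. Its means differed 2.03-fold, with a fitted log2 difference of 1.02 (SE 0.19), and the groups were apart. *C1ra* had 294, 273 and 300 counts in WT and 310, 540 and 352 counts in *Aff3ir-ORF2*-/- replicates, 16.6 ± 0.916 against 21.7 ± 6.37 CPM. On the CPM scale *Aff3ir-ORF2*-/- replicate 1, at 17.02, lay below WT replicates 1 and 3, at 17.05 and 17.17. The fitted log2 difference of *C1ra* was 0.39 (SE 0.18). It was 0.12 without *Aff3ir-ORF2*-/- replicate 2 and 0.53 without *Aff3ir-ORF2*-/- replicate 1, so its size depended on single libraries. *C1s1*, the gene of the partner protease and a neighbour of *C1ra* on chromosome 6, had 489, 510 and 487 counts in WT and 561, 1075 and 614 counts in *Aff3ir-ORF2*-/- replicates. It did not pass edgeR's test (log2 difference 0.52, SE 0.21, Benjamini-Hochberg adjusted p = 0.0608), and its size rested on *Aff3ir-ORF2*-/- replicate 2. The log2 difference was 0.17 without that replicate, 0.68 without replicate 1 and 0.64 without replicate 3, where the last 2 passed both thresholds (edgeR adjusted p = 0.0231 and 0.0324).

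The order of transcript levels per length also differed between the genotypes. In WT the order was *Serping1*, at 6.23 ± 0.264 CPM per kb, then *C1ra* at 5.56, *C3* at 1.35, *C3ar1* at 0.222 and *C4b* at 0.0891, with no overlap between neighbours to that point. *C5ar1* and the C1q chains came last and overlapped with their neighbours. In *Aff3ir-ORF2*-/- cells the C1q chains came first, *C1qa* at 22.2 ± 8.81, *C1qc* at 21.7 and *C1qb* at 21.2 CPM per kb, ahead of *Serping1* at 12.6. *C3ar1* at 7.79, *C1ra* at 7.29, *C5ar1* at 6.19 and *C3* at 6.15 followed, and neighbours in the order overlapped as far as *C3*, which lay apart from *C4b* at 0.979.

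The *Aff3ir-ORF2*-/- replicates were not alike, and the genes spread over them in different ways. For each gene, the CPM of a replicate was divided by the sum over the 3, so that equal levels give equal shares. The summed C1q chains had 19.2%, 41.4% and 39.4% of their level in replicates 1, 2 and 3. *C3ar1* had 22.7%, 35.3% and 42.1%, close to *C5ar1* with 22.7%, 36.6% and 40.7%. The macrophage list had 24.6%, 33.6% and 41.7%, the same order of replicates as the receptors. *Serping1*, at 25.8%, 44.4% and 29.8%, and *C1ra*, at 26.1%, 44.5% and 29.4%, were highest in replicate 2, as were the summed C1q chains. Unlike C1q, *Serping1* and *C1ra* had nearly equal shares in replicates 1 and 3. *C1s1* had 25.3%, 47.3% and 27.4%, and the fibroblast list 32.1%, 37.9% and 30.0%. *C3*, at 25.2%, 39.0% and 35.8%, and *C4b*, at 24.7%, 37.7% and 37.6%, lay between these patterns. Each of the 9 genes was lowest in replicate 1. These shares describe 3 libraries and were not tested.

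**Figure D2:**
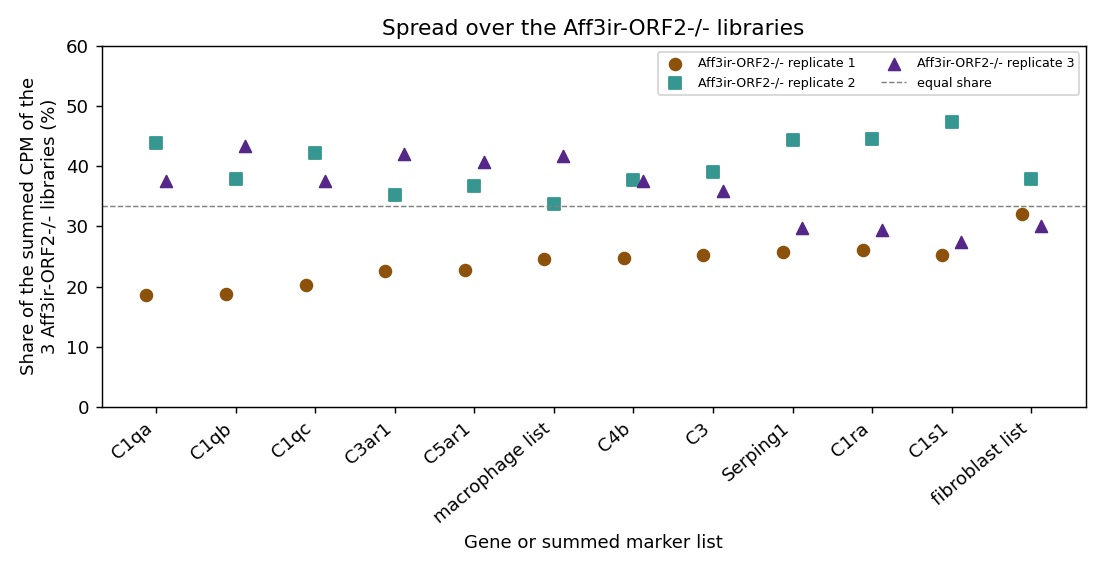
Share of each gene's or list's summed CPM that fell in each *Aff3ir-ORF2*-/- replicate, in percent, with a dashed line at equal shares. Replicate 3 holds over 35% for C1q chains, receptors, *C3* and *C4b*, and under 30% for *Serping1*, *C1ra* and *C1s1*.

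The macrophage list, like the C1q and receptor genes, was higher in *Aff3ir-ORF2*-/- cells. Its order of replicates was that of the receptors and *C1qb*, but not of *C1qa* and *C1qc*, which were highest in replicate 2. Of 17 macrophage markers tested, 10 passed the filter on low counts solely through their *Aff3ir-ORF2*-/- libraries and could only come out higher. The other 7 also rose and 0 fell, against 11.4% and 7.05% of the 12130 genes that reached the filter's cutoff in every library. Among the 7 was *Lyz2*, lysozyme, which went from 162, 199 and 182 WT counts to 14471, 20237 and 25195 in *Aff3ir-ORF2*-/- replicates. *Fcgr1*, *Aif1* and *Ly86* were at 0 in every WT library. In *Aff3ir-ORF2*-/- replicates *Fcgr1* had 17, 43 and 42 counts. *Aif1*, with 1, 3 and 5, and *Ly86*, with 4, 12 and 5, stayed low there and were not tested. Relative to the summed macrophage list, C1q chains together stood at 3.02%, 4.77% and 3.67% in *Aff3ir-ORF2*-/- replicates, with the highest over the lowest at 1.58. *C3ar1* stood at 1.65%, 1.88% and 1.81% and *C5ar1* at 0.777%, 0.918% and 0.822%, a highest over lowest of 1.14 and 1.18. In WT, from few counts, *C3ar1* stood at 2.93%, 3.85% and 5.39% and *C5ar1* at 0.532%, 0.452% and 0.735%. Every *Aff3ir-ORF2*-/- value of *C3ar1* relative to the list thus lay below every WT value. *C3* stood at 34.6%, 28.1% and 26.7% of the list in WT and at 1.73%, 1.96% and 1.46% in *Aff3ir-ORF2*-/- replicates. The part of the macrophage markers in these results was not tested.

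Hepatocyte markers were near the floor. Of 12 hepatocyte markers, 5 were in the table, 0 passed the filter, and their sum was 0.220 to 0.644 CPM over all libraries. The 12 fibroblast markers were all tested, and *Pdgfrb*, *Dcn* and *Lum* rose while 0 fell past both thresholds, with a median log2 difference of -0.07. Over all genes tested, 14.3% rose and 7.32% fell. In *Col1a1*, *Col1a2*, *Col5a1* and *Vim* every *Aff3ir-ORF2*-/- library lay below every WT library, with log2 differences of -0.49, -0.41, -0.38 and -0.39 that were under the fold threshold (edgeR adjusted p = 0.00659, 0.0191, 0.0187 and 3.94e-04). In 4 others, *Pdgfrb*, *Dcn*, *Lum* and *Fn1*, every *Aff3ir-ORF2*-/- library lay above every WT library. Both counts were near the shares over all genes tested, 32.7% wholly below WT and 33.3% wholly above, so nothing is read from them. *Fn1*, the most abundant of the list, had a log2 difference of 0.45, under the fold threshold (edgeR adjusted p = 4.42e-04). *Dcn*, which encodes decorin, was highest in *Aff3ir-ORF2*-/- replicate 2 (4510 counts, against 2245 and 2521). Among T cell, B cell, neutrophil, mast cell, endothelial and epithelial markers, 7 were tested. *Kdr* and *Vwf* rose, as did *S100a8*, which passed the filter through *Aff3ir-ORF2*-/- libraries alone. *Cdh5* fell, and *Lck*, *Tek* and *Krt18* did not pass both thresholds. *Cdh5*, *Lck* and *Tek* passed the filter through WT libraries alone. Over all genes tested, 14.3% rose and 7.32% fell. The lists of these cell types summed to at most 19.9 CPM in any library.

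Genes with at most 3 counts in every WT library and at least 100 in an *Aff3ir-ORF2*-/- library were ranked by how closely their shares over the 3 *Aff3ir-ORF2*-/- replicates followed those of C1q. Among 27 such genes the closest was *Myo1g*, a myosin of blood cells, with 56, 106 and 100 counts in *Aff3ir-ORF2*-/- replicates and a largest difference in share of 2.42 percentage points. *Ptpn7*, a phosphatase of blood cells, followed at 3.11, *Cd180*, a Toll-like-receptor relative, at 3.51, *Fcgr2b*, an inhibitory antibody receptor, at 4.404 and *Cd300lf*, a myeloid inhibitory receptor, at 4.70 percentage points. *C1qb* alone had 18.7%, 37.9% and 43.4%, against 19.2%, 41.4% and 39.4% for the summed chains, a wider gap than that of *Myo1g*. The order among these genes is therefore not resolved, and it was not tested.

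The rest of the complement system was read from a list of 52 genes by role, of which 43 are not among the 9. Of these, 38 were in the table and 18 passed the filter. With edgeR's quasi-likelihood test and the same thresholds, 13 rose, 1 fell and 4 did not pass, where 14.3% of all genes tested rose and 7.32% fell. Of these 18 genes, *C4bp*, *C5ar2* and *Fcna* passed the filter solely through their *Aff3ir-ORF2*-/- libraries, and *Cr2*, *Cd46* and *Colec10* solely through their WT libraries, so that the direction of each was set by the filter. Of the other 12, which reached the filter's cutoff in every library, 10 rose and 0 fell, with a median log2 difference of 1.26. Over all 12130 genes that did so, 11.4% rose, 7.05% fell and the median was -0.01.

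Of the lectin-pathway genes tested, 2 of 3 rose, and of the other classical-pathway genes 1 of 2 did, against 14.3% of all genes tested. The filter set the direction of *Fcna* and *Colec10*. *Masp1*, a lectin-pathway protease, rose from 42.04 ± 4.53 to 114 ± 27.3 CPM (SD, n = 3; log2 difference 1.44, SE 0.16, edgeR adjusted p = 1.01e-04). Its counts were 814, 706 and 677 in WT against 2002, 1658 and 2626 in *Aff3ir-ORF2*-/- replicates. *Fcna*, the ficolin recognition molecule, rose from 9, 11 and 9 to 23, 41 and 36 counts (log2 difference 1.69, SE 0.30). *C2*, cleaved by C1s, rose by a small amount (log2 difference 0.62, SE 0.17, edgeR adjusted p = 0.0139), and its call was lost without WT replicate 3 (adjusted p = 0.0582) and without *Aff3ir-ORF2*-/- replicate 2, where the log2 difference was 0.46. *Colec10*, a collectin, did not pass (log2 difference -0.62, edgeR adjusted p = 0.127).

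*Cfp* and *Cfb*, the other alternative-pathway genes tested, both rose, against 14.3% of all genes tested. *Cfp* encodes properdin, which stabilizes the convertase and is made by leukocytes, and it went from 24, 18 and 18 to 218, 313 and 383 counts (log2 difference 3.84, SE 0.26). *Cfb*, factor B, rose from 30, 25 and 32 to 40, 66 and 51 counts (log2 difference 0.77, SE 0.23, edgeR adjusted p = 0.0186), a call lost without WT replicate 1 (adjusted p = 0.0520), without WT replicate 2 (adjusted p = 0.0752) and without *Aff3ir-ORF2*-/- replicate 2, where the log2 difference was 0.57. Terminal components, which form the membrane pore, were at 5 counts or fewer in every library, and 0 of the 5 in the table could be tested.

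Of the other regulators, 2 of 2 soluble and 3 of 5 membrane genes tested rose, and 0 fell. Over all genes tested, 14.3% rose and 7.32% fell, and the filter set the direction of *C4bp* and *Cd46*. *Clu*, clusterin, rose from 55, 47 and 53 to 269, 377 and 605 counts (log2 difference 2.93, SE 0.31). *C4bp*, which binds C4b, went from 0, 1 and 2 to 40, 52 and 68 counts, a ratio of 50.5 with a 95% counting interval of 16.98 to 248. At the membrane, *Cd55*, decay-accelerating factor, rose from 29.5 ± 1.05 to 57.4 ± 15.1 CPM (log2 difference 0.96, SE 0.16) and *Cd59a*, which blocks the pore, from 4.67 ± 0.574 to 9.98 ± 0.750 CPM (log2 difference 1.10, SE 0.13). *Csmd1* rose from 14, 11 and 11 to 19, 48 and 36 counts (log2 difference 1.43, SE 0.37). *Cr1l*, the Crry regulator, had 928, 1009 and 967 WT counts against 789, 942 and 742, and its log2 difference of -0.31 was under the fold threshold (edgeR adjusted p = 0.00980). *Cd46* did not pass (log2 difference -0.93, edgeR adjusted p = 0.0676).

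Of the other receptors, 3 of 4 tested rose and 1 fell, against 14.3% and 7.32% of all genes tested. The filter set the direction of *C5ar2* and *Cr2*. The genes of complement receptor 3, an integrin of myeloid cells, were among those that rose. *Itgam* went from 10, 15 and 18 to 665, 852 and 1150 counts (log2 difference 5.86, SE 0.29), and *Itgb2* from 35, 46 and 33 to 611, 755 and 963 (log2 difference 4.27, SE 0.21). *C5ar2*, the second C5a receptor, had 0 counts in each WT replicate and 14, 12 and 12 in *Aff3ir-ORF2*-/- replicates, at least 3.96-fold higher. *Cr2*, the receptor of B cells and follicular dendritic cells for C3 fragments, was the gene that fell, from 55, 49 and 57 counts to 17, 5 and 8 (log2 difference -2.49, SE 0.34, edgeR adjusted p = 3.16e-04).

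**Figure D3:**
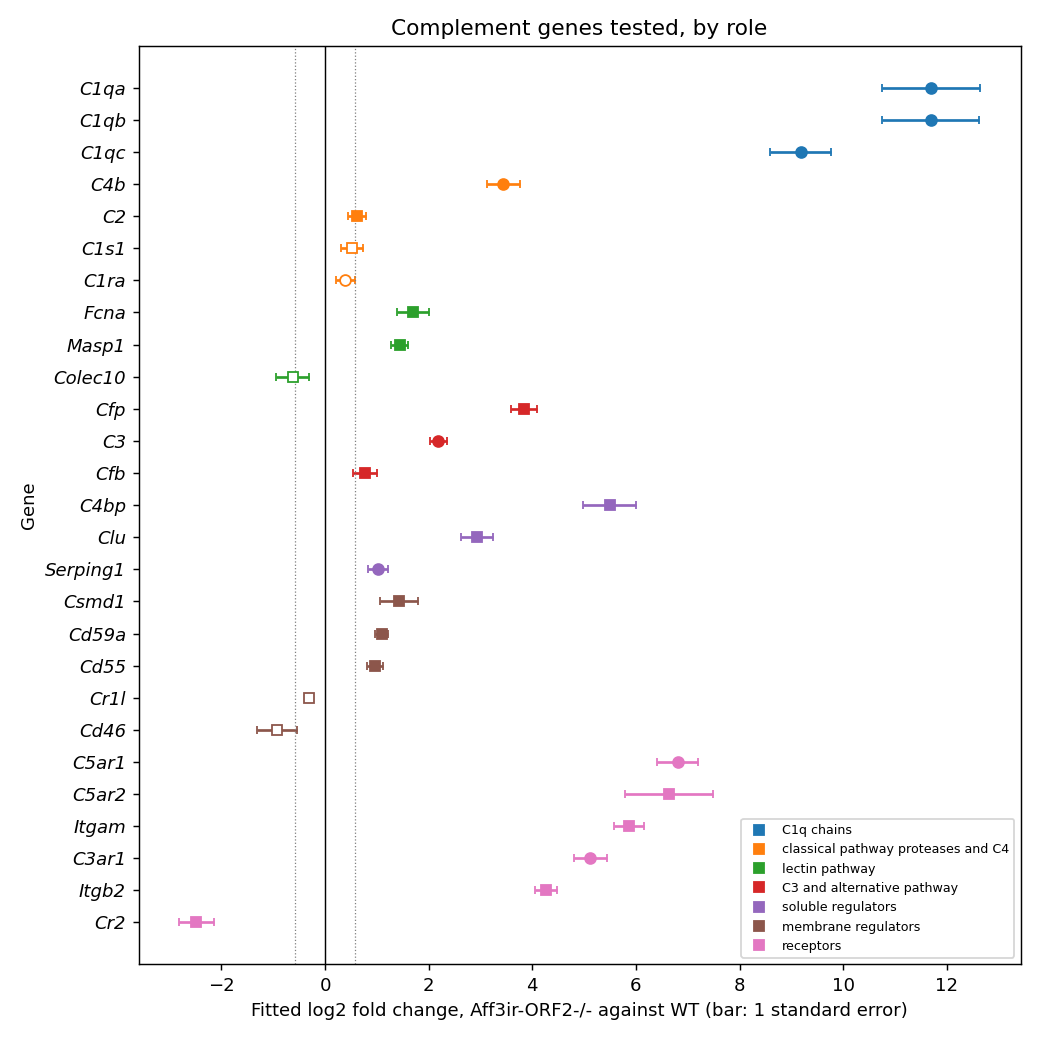
Fitted log2 difference, *Aff3ir-ORF2*-/- minus WT, of the 27 complement genes tested, with bars of 1 standard error and colours by role. Circles are the 9 chosen genes, squares the others, filled symbols pass both thresholds, and dotted lines mark 1.5-fold. C1q chains lie furthest to the right, receptors other than *Cr2* and *C4bp* follow, and *Cr2* is the filled symbol on the left. Values of genes at the floor in WT depend on the prior count.

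Levels were also summed by role, the 9 genes included. Receptors together went from 6.55 to 7.67 CPM over WT libraries to 106, 141 and 179 CPM in *Aff3ir-ORF2*-/- replicates. Membrane regulators stood at 89.8 to 93.1 CPM in WT and at 107, 139 and 99.3 CPM in *Aff3ir-ORF2*-/- replicates. The classical pathway proteases with C4 stood at 50.3 to 51.6 CPM in WT and at 58.3, 102 and 66.2 CPM in *Aff3ir-ORF2*-/- replicates. The whole list summed to 216 to 223 CPM in WT and to 498, 674 and 690.0 CPM in *Aff3ir-ORF2*-/- replicates.

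**Figure D4:**
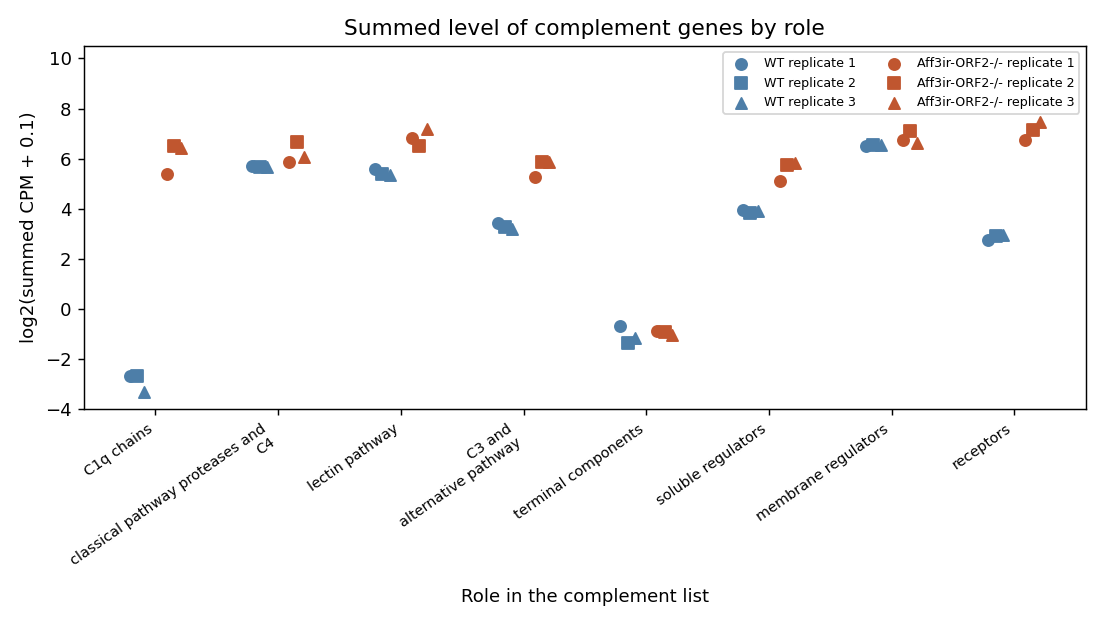
Summed level of the complement list by role in each library, as log2(summed CPM + 0.1), with WT in blue, *Aff3ir-ORF2*-/- in orange and a shape per replicate number. C1q chains and receptors show the widest gaps between genotypes, and terminal components overlap at under 1 CPM.

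The genes beside the complement clusters were read as a local comparison, with gene order from RefSeq GRCm38.p6. *C1qb*, *C1qc* and *C1qa* lie in a row on chromosome 4 between *Ephb2* and *Epha8*. *Ephb2*, an ephrin receptor gene, fell from 1519, 1540 and 1516 counts to 807, 1135 and 715 (log2 difference -0.86, SE 0.13, edgeR adjusted p = 6.98e-04). *Epha8* had 1, 1 and 0 WT counts, was at 0 in each *Aff3ir-ORF2*-/- replicate and was not tested. *Ephb2* thus differed in the opposite direction to the C1q genes beside it. On chromosome 6, the row holding *C1ra* and *C1s1* is flanked by *C1rl*, a C1r-like protease gene, which rose (log2 difference 0.60, SE 0.18, edgeR adjusted p = 0.0209), and by *Lpcat3*, which did not pass (log2 difference 0.14, edgeR adjusted p = 0.138).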

How the data were processed

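RNA from WT and *Aff3ir-ORF2*-/- MEFs was sequenced as paired-end reads on a DNBSEQ instrument, and the authors had the reads filtered with SOAPnuke and deposited estimated counts of genes without normalization, of which 10.6% to 11.3% per library are not whole. The aligner and the counting tool are not given in the sources used here. The submitters' processing notes name build mm8, and the table holds no coordinates. Columns were matched to libraries by name, and groups came from the labels.

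The values were rounded and analysed in edgeR 4.0.16. Its filterByExpr step, set to at least 10 counts and 15 in total, kept 13075 genes, to which TMM scaling and a quasi-likelihood fit without covariates were applied, with Benjamini-Hochberg adjustment. Calls needed an adjusted p under 0.05 and at least 1.5-fold. The functions were tested on simulated data. limma 3.58.1, DESeq2 1.42.0, R 4.3.3, Python 3.11.15 and matplotlib 3.10.9 were also used. Counting intervals are exact binomial intervals at 95%, rescaled by depth, and with the floors they cover counting error only.

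The 9 genes, the complement and marker lists and the tests were chosen with earlier results of these data known. Genes were named by rule: the 9, the other complement genes past both thresholds or at a mean of at least 10 CPM, the nearest neighbours of the C1q and *C1ra* rows, the 5 genes most like C1q, and the most abundant or undetected markers. *C4a*, *Colec10*, *Cd46*, *Dcn*, *Col5a1*, *Vim*, *Fcgr1*, *Aif1*, *Ly86* and other genes a small count needed were named after their values were seen. Alternatives were other normalizations, filters, tools and thresholds, a replicate block and leaving out each library, with a robust prior added after seeing the data. *C1rb*, *Mbl1*, *Fcnb*, *C8a*, *C8b* and *Cd163* were not analysed here, and 1 gene of the complement list is not reported here and was left out of its counts.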

Additional observations from a re-analysis of the deposited data

How the results depend on the processing

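The 9 complement genes kept the sign of their log2 difference under every alternative that could give a value. *C1ra* ranged from 0.12 to 0.53, *Serping1* from 0.75 to 1.17, *C3* from 2.05 to 2.35, *C4b* from 3.10 to 3.70, *C3ar1* from 4.91 to 5.37 and *C5ar1* from 6.58 to 7.01, whereas the values of the C1q chains depend on how 0 counts are handled (*C1qa* 9.57 to 11.98). The median of the C1q and receptor genes was 9.18, or 7.05 with genes at the floor set to their bound, and 8.66 to 9.53 when leaving out libraries. With at least 10 counts in every library only *C3ar1* of that set remained tested, and the median was 5.13. The median of the other 4 genes was 1.60, 1.40 to 1.76 when leaving out libraries, and 1.03 with at least 10 counts in every library, where *C4b* drops out.

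Of the other complement genes, 13 were called higher and 1 lower. The first count was 10 to 14 over all alternatives, 12 to 14 when leaving out libraries. The second was 2 without a filter, which adds *Cpn1* (2, 5 and 3 counts in WT, 0 in each *Aff3ir-ORF2*-/- replicate), 0 with at least 10 counts in every library, where *Cr2* drops out, and 1 to 2 when leaving out libraries, the 2 without *Aff3ir-ORF2*-/- replicate 3 being *Cr2* and *Cd46*. Over all genes, 1865 were called higher and 957 lower, 1102 and 318 at 2-fold, 1791 to 1933 and 905 to 1034 when leaving out libraries, and 1851 and 951 with a robust prior. At 2-fold, *C2*, *Cfb* and *Cd55* lost their calls.

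Same-numbered libraries of the genotypes correlated at 0.0557, 0.0428 and 0.0216 in their deviations, too weakly to pair them, although every library correlated best with its own number. With the replicate number as a block, 1870 genes were called higher and 975 lower, and 13 and 1 of the other complement genes. Counts of 0 to 3 in WT limit the fold changes of *C1qa*, *C1qb*, *C1qc* and *C5ar1* to bounds or wide intervals.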
